A study of Homo sapiens with 9 samples.

Results

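The 36 genes described here drive and carry out mitosis, and were measured in the established human cell line SKBR3, which comes from a breast cancer and carries many copies of ERBB2. They were taken by name from a table of 20812 genes, as cyclins and kinases of mitotic entry and as genes of the spindle, the centromere, the spindle checkpoint and cell division. All 36 were in the table, and all 36 were among the 11158 genes tested. Cells received 10 nM of siRNA in the lipid reagent Lipofectamine RNAiMAX for 48 h, and every library was made from 100 ng of total RNA. The control group (3 libraries) had a non-targeting ON-TARGETplus siRNA from Horizon Discovery. The groups siRNA 1 and siRNA 2 (3 libraries each) had 1 of 2 PVRL4 siRNAs from Integrated DNA Technologies. Supplier and target of the siRNA therefore cannot be told apart in a comparison with control. No untransfected cells were analysed here, and siRNA sequences were not used here. The labels number the replicates 1 to 3 in each group without saying that they are separate cultures, and the spread that the p-values rest on may be technical.

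Cells make most of these transcripts late in the cell cycle. The kinase CDK1 with its cyclins A and B starts mitosis, the chromosomes condense and are caught by the spindle at their kinetochores, and the spindle checkpoint holds the cell until every chromosome is attached. The anaphase promoting complex with CDC20 then has securin and cyclin B destroyed, sister chromatids part, and cytokinesis divides the cell. In breast tumours, messenger RNA levels of this group are a common measure of proliferation. In RNA of whole cultures, fewer cells near mitosis and less RNA per such cell cannot be told apart.

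PVRL4 (NECTIN4 in current annotation), which encodes the adhesion molecule nectin-4, was the targeted gene. It stood at 9.93, 7.86 and 11.6 RPM (the share of a library's reads that fell on a gene, brought to the same total in all libraries) in control replicates 1, 2 and 3, at 5.99, 4.36 and 4.67 RPM with siRNA 1, and at 3.39, 2.91 and 2.58 RPM with siRNA 2. The 3 groups did not overlap. On the log2(RPM + 1) scale, the change was -1.44 with siRNA 2 (limma, adjusted p = 0.00224) and -0.84 with siRNA 1 (limma, adjusted p = 0.0601; 0.0132 with the replicate number as a block). For either siRNA against control, p was 0.1 in an exact permutation test (two-sided), which 3 against 3 libraries cannot go below. Libraries held 10017132 to 10707776 reads. Transcripts of 6 SKBR3 luminal markers summed to 8558 to 10800 RPM and CDH1, which SKBR3 lacks, reached at most 0.093 RPM. Summed markers of leukocytes, fibroblasts, endothelium and basal cells reached at most 1.16, 7.66, 10.3 and 6.59 RPM. A list of 15 interferon-induced genes differed between groups. It summed to 159 to 160.5 RPM in control, to 6575, 953 and 2973 RPM in siRNA 1 replicates 1, 2 and 3, and to 166 to 256 RPM with siRNA 2. With siRNA 1, 14 of the 15 passed the test against control, IRF9 with a log2 change of 3.67 (limma, adjusted p = 0.000107), and with siRNA 2 none of the 15 did by limma, edgeR or DESeq2 (0 at an unadjusted p under 0.05; adjusted p of OAS1, the gene with the smallest p, 0.555).

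Many genes of mitosis share promoter elements, the cell cycle genes homology region (CHR) and the CCAAT box, which bind the MuvB complexes and the factor NF-Y. The RefSeq promoter table (GRCh38.p14) held 29 of the 36 genes, each as a window from 250 bases before to 50 after the first listed start. It had no entry for AURKA, BIRC5, BUB3, FOXM1, TPX2, TTK or UBE2C. A CHR match (TTTGAA or the palindrome TTCGAA, both strands) was found in 21 of the 29 windows (72.4%), against 16.6% of all 27305 windows of that length. CCAAT, read on both strands, was found in 22 (75.9%), against 35.7% of all windows, and both motifs in 17 (58.6%), against 6.58%. Neither motif contains the other. The 200 bases before the start are shown for 4 genes named in the results below, on the strand of the gene. CHR and CCAAT matches of either strand are in capitals. All 4 hold both motifs in this stretch. Other genes named below do not, such as ANLN, with no CCAAT match, and CENPF, with its CHR match after the start. CCNB2, whose cyclin partners CDK1, lies at chr15:59104946-59105145 (plus strand), and the TOP2A window, of the topoisomerase that untangles chromosomes, at chr17:40417897-40418096 (minus strand). INCENP, scaffold of the chromosomal passenger complex, lies at chr11:62123811-62124010 (plus strand) and CDK1 at chr10:60778131-60778330 (plus strand). A match describes the letters only.
CCNB2: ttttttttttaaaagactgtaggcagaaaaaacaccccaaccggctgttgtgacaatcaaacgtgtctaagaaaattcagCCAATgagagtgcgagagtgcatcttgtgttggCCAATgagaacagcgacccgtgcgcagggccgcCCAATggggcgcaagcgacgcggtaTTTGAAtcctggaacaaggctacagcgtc
TOP2A: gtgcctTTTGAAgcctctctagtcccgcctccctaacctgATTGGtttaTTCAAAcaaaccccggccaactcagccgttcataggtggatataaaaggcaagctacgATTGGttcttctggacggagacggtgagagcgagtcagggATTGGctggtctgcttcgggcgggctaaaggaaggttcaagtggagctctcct
INCENP: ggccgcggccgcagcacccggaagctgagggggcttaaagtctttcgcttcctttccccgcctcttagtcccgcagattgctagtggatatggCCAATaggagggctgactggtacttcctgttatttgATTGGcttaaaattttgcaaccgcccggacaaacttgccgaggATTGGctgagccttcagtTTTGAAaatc
CDK1: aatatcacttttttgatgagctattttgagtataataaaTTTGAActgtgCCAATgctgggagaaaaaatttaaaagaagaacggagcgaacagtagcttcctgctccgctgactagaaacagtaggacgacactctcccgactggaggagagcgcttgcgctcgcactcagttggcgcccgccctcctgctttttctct

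All 36 genes were read well above the floor of 3 reads in every library. The lowest value was 52 reads, for NDC80, and the highest 9593 reads, for TOP2A. Because each gene is read through 1 amplicon of its own efficiency, levels were compared between libraries and not between genes. Over the 9 libraries, the highest value of a gene was 1.18 times the lowest for DLGAP5, which helps build spindle fibres, and 2.17 times for PTTG1, the securin gene, with a median of 1.52 times over the 36. PTTG1 stood at 27.4, 23.5 and 22.5 RPM in control and at 23.6, 22.6 and 27.2 RPM with siRNA 1. With siRNA 2 it stood at 24.5, 24.5 and 48.8 RPM. Its spread thus came from siRNA 2 replicate 3. The near copies PTTG2 and PTTG3P did not exceed 0.29 RPM and AURKAPS1, a pseudogene of AURKA, held 1.59 to 3.10 RPM, against 46.8 RPM or more for AURKA. Whether the amplicons take up reads of these copies was not tested. Summed over the 36 genes, control replicates 1, 2 and 3 held 4994, 4124 and 4473 RPM. The sums with siRNA 1 were 4313, 3658 and 3945 RPM, and with siRNA 2 they were 4999, 4182 and 4889 RPM. Replicate 2 had the lowest sum in each group and replicate 1 the highest.

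**Figure D1:**
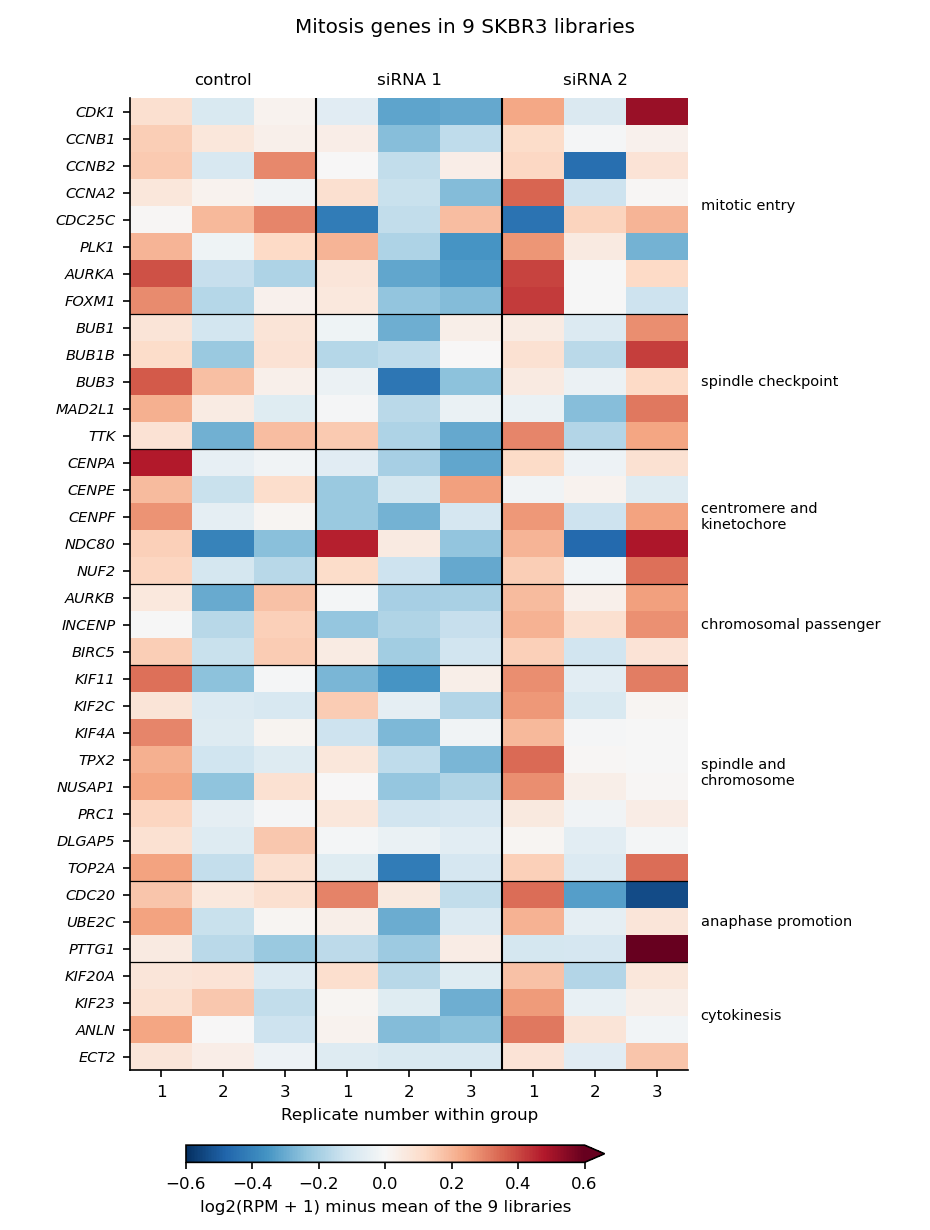
Level of each of the 36 mitosis genes (rows, grouped by role) in the 9 libraries (columns, by group and replicate number), as log2(RPM + 1) minus the mean of the gene over the 9 libraries; the arrow on the colour scale marks values above 0.6, such as PTTG1 in siRNA 2 replicate 3. Blue is most frequent in siRNA 1 replicates 2 and 3, which held the lowest value for 12 and 11 genes, and red in siRNA 2 replicates 1 and 3, which held the highest for 12 and 11.

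With siRNA 1, mitosis genes lay slightly below control as a group, and no gene of the 36 passed the test. The difference was negative for 34 of 36 genes, with a median of -0.15 on the log2(RPM + 1) scale, while over all 11158 genes the median was 0.014 and 46.08% were negative. At an adjusted p under 0.05 (limma, Benjamini-Hochberg over all genes), 0 of 36 passed, against 0.851% of all genes. At an unadjusted p under 0.05 there were 3 of 36 by limma, against 674 of all 11158 genes. Both edgeR and DESeq2, which also called 0, had 3 each, against 703 and 639 of all genes. Libraries of the same replicate number deviated together across groups, and with the number as a block 1 of 36 passed, BUB3, against 1.85% of all genes. Within pairs of the same number, 22 of 36 genes were lower with siRNA 1 in all 3 pairs, against 16.1% of all genes. NDC80 alone was higher in all 3, against 18.1% of all genes. In the same libraries the interferon-induced list stood at 6575, 953 and 2973 RPM, and its part in these differences was not tested. Libraries decided the size of the median, which was -0.076 without control replicate 1 and -0.23 without control replicate 2.

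Genes of mitotic entry (8) were all lower in the mean with siRNA 1, with a median of -0.21 and none past the test. CCNB1, the main B-type cyclin of mitosis, stood at 103, 97.1 and 94.4 RPM in control and at 95.1, 77.3 and 83.1 RPM with siRNA 1. Its groups overlapped only through siRNA 1 replicate 1, and the difference was -0.21 (SE 0.10, limma, adjusted p = 0.907). The largest difference of the role was -0.29 for CDC25C, the phosphatase that activates CDK1, and the smallest -0.12 for CCNA2, the cyclin A gene. Spindle checkpoint genes (5) were also all lower in the mean, with a median of -0.11. BUB3, which carries the checkpoint kinases BUB1 and BUBR1 to kinetochores, stood at 155, 136 and 122 RPM in control, at 117, 88.5 and 100.7 RPM with siRNA 1 and at 124, 117 and 130.1 RPM with siRNA 2. Every siRNA 1 library lay under every control library and, in replicate 1 by a narrow margin, under every siRNA 2 library. The siRNA 1 mean was 74.2% of control, a difference of -0.43 (SE 0.12, limma, adjusted p = 0.191). With the replicate block BUB3 fell (SE 0.094, limma, adjusted p = 0.0219; edgeR with the block 0.0206). The other checkpoint genes differed by -0.13 (MAD2L1), -0.11 (BUB1), -0.10 (TTK) and -0.099 (BUB1B).

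Of the centromere and kinetochore genes, 4 of 5 were lower in the mean with siRNA 1, and none passed. CENPA, the histone variant that marks centromeres, stood at 53.6, 37.0 and 37.8 RPM in control and at 36.5, 33.2 and 30.6 RPM with siRNA 1. The groups did not overlap, but siRNA 1 replicate 1 and control replicate 2 were almost level, and control replicate 1 stood apart. The difference was -0.33 (SE 0.14, limma, adjusted p = 0.756). CENPF, a kinetochore protein made in late G2, stood at 199.7, 159.5 and 167 RPM in control and at 142, 136 and 154 RPM with siRNA 1. Its groups did not overlap either, with a difference of -0.28 (SE 0.12, limma, adjusted p = 0.756). NDC80, the microtubule-binding arm of the kinetochore, went the other way at 8.21, 5.30 and 6.01 RPM in control and 10.5, 7.65 and 6.07 RPM with siRNA 1. That is 0.26 in the mean (SE 0.25), with overlapping groups and the widest interval of the 36 genes.

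Chromosomal passenger genes, whose kinase AURKB corrects faulty attachments, differed by -0.17 (INCENP), -0.15 (BIRC5, survivin) and -0.11 (AURKB itself) with siRNA 1. Spindle and chromosome genes (8) had a median of -0.15, with 7 negative and KIF2C, a motor that takes microtubules apart, at 0.0086. Among them TOP2A stood at 857, 656 and 776 RPM in control and at 689.7, 542 and 677 RPM with siRNA 1, so that both groups overlapped through control replicate 2. Genes of anaphase promotion differed by -0.15 (UBE2C, the ubiquitin-conjugating enzyme of the complex), -0.040 (CDC20) and -0.00044 (PTTG1). Cytokinesis genes (4) had a median of -0.14. ECT2, which activates the GTPase RhoA at the division site, stood at 276, 269.5 and 257 RPM in control and at 249, 246 and 246 RPM with siRNA 1. The groups did not overlap, although the difference was only -0.12 (SE 0.091). In all, 4 of 36 genes were lower with siRNA 1 with no overlap (BUB3, CENPA, CENPF and ECT2), against 5.59% of all genes.

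**Figure D2:**
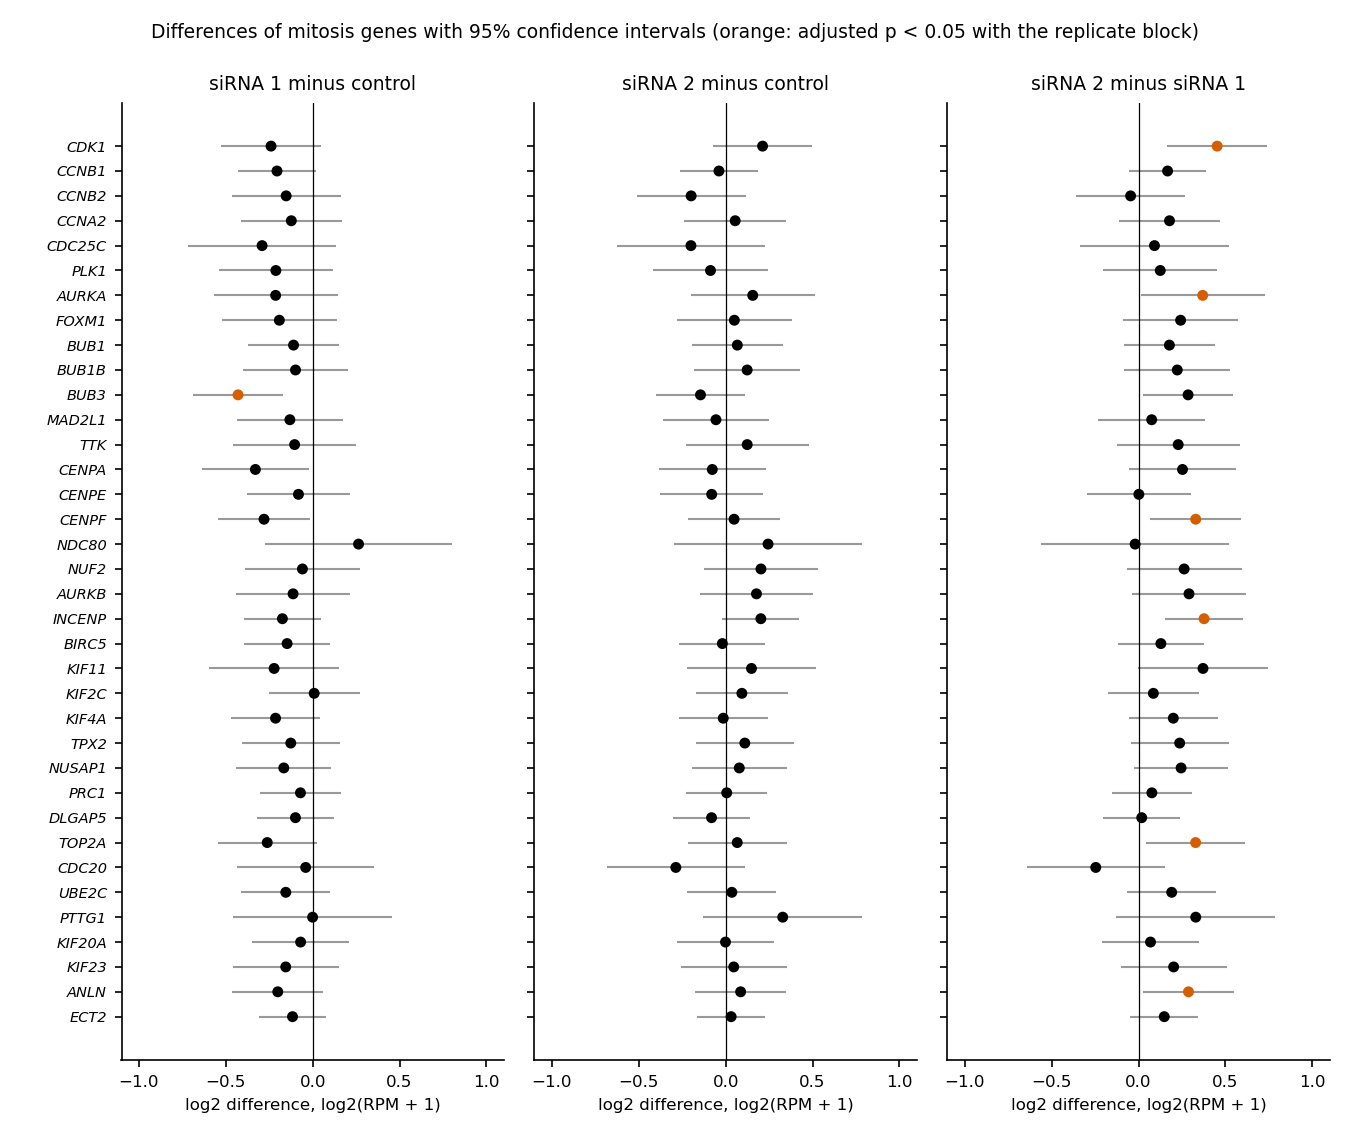
Log2 differences of the 36 mitosis genes (points) with their 95% confidence intervals (lines, limma without the block) in 3 comparisons; orange points passed an adjusted p of 0.05 with the replicate block. Points lie left of 0 for 34 genes with siRNA 1 against control and right of 0 for 33 genes with siRNA 2 against siRNA 1, and BUB3 is orange in the first panel and 6 genes in the last.

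With siRNA 2, the genes lay on either side of control and none passed the test. The difference was negative for 13 of 36 genes, with a median of 0.049, against -0.022 and 54.57% negative over all genes. By limma 0 of 36 passed (0.681% of all genes), and 0 lay at an unadjusted p under 0.05 (1051 of all 11158 genes). Both edgeR and DESeq2 gave 0 on either count. With the replicate block 0 of 36 passed (3.41% of all genes), with 4 at an unadjusted p under 0.05 (1825 of all 11158 genes). Within pairs, 3 genes were lower in all 3 (CCNB1, CCNB2 and CDC25C), against 21.2% of all genes, and 8 were higher in all 3 (CDK1, AURKA, TTK, NUF2, AURKB, INCENP, TPX2 and ANLN), against 14.7%. The median turned to -0.016 without control replicate 2 and to -0.0090 without siRNA 2 replicate 1.

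Roles split in this comparison. The 3 genes lower in all pairs belong to mitotic entry, as do CDK1 and AURKA, which were higher in all pairs. CDC25C stood at 12.5, 14.4 and 15.5 RPM in control and at 8.88, 13.8 and 14.5 RPM with siRNA 2. The gap was largest in replicate 1, and the groups overlapped. INCENP, with the smallest p of the 36, stood at 112, 100.1 and 124 RPM in control and at 130.0, 120.4 and 136 RPM with siRNA 2. Its groups overlapped through control replicate 3, and the difference was 0.20 (SE 0.10, limma, adjusted p = 0.589). CDC20, the activator of the anaphase promoting complex, stood at 57.6, 53.4 and 54.7 RPM in control and at 64.8, 40.4 and 34.9 RPM with siRNA 2. Replicate 1 was higher than every control and replicates 2 and 3 lower, for a mean difference of -0.29 (SE 0.18, limma, adjusted p = 0.709). PTTG1, whose product CDC20 marks for destruction, differed by 0.33 (SE 0.21, limma, adjusted p = 0.713) through siRNA 2 replicate 3.

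**Figure D3:**
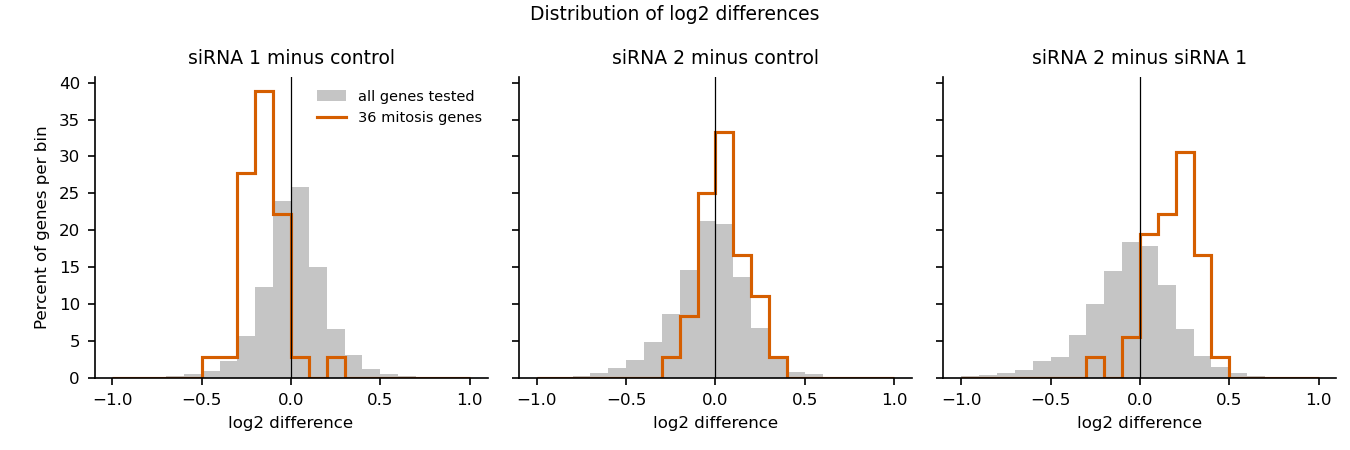
Share of genes (percent, vertical axis) by log2 difference (horizontal axis, in bins of 0.1) for all 11158 genes tested (grey) and for the 36 mitosis genes (orange line) in 3 comparisons; genes beyond 1 in either direction are not drawn. The orange line lies left of the grey one in the first panel (medians -0.15 and 0.014), close to it in the second (0.049 and -0.022) and right of it in the third (0.20 and -0.039).

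Of the 4 siRNA comparisons, that between the PVRL4 siRNAs gave the most calls among mitosis genes with the block. Mitosis genes were higher with siRNA 2 than with siRNA 1 for 33 of 36, with a median of 0.20, while the median over all genes was -0.039 and 57.11% were negative. This comparison shares the siRNA 1 libraries with the first and the siRNA 2 libraries with the second. No gene passed limma without the block (0 of 36, against 3.05% of all genes). At an unadjusted p under 0.05 there were 7 of 36, against 1686 of all 11158 genes. By edgeR 0 were called, with 8 at that level, against 1726 of all genes. DESeq2 called 2, CDK1 and INCENP, against 524 of all 11158 genes. With the replicate block 6 of 36 passed, against 9.33% of all genes, all higher with siRNA 2. They were CDK1, AURKA, CENPF, INCENP, TOP2A and ANLN. With the block, edgeR called these and BUB3, against 1015 of all 11158 genes. In all 3 pairs 25 of 36 genes were higher with siRNA 2, against 17.2% of all genes, and 0 were lower, against 26.2%. The interferon-induced list ran the other way, from 953 RPM or more with siRNA 1 to 256 RPM or less with siRNA 2, and its part in the contrast was not tested.

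CDK1, the kinase at the centre of mitotic entry, stood at 332, 292 and 315 RPM in control, at 296, 249 and 251 RPM with siRNA 1, and at 365, 293 and 445 RPM with siRNA 2. The siRNA 2 values were higher in each pair, most in replicate 3, and siRNA 2 replicate 2 was level with siRNA 1 replicate 1. The difference between the siRNAs was 0.45 (SE 0.13, limma, adjusted p = 0.0945), and with the replicate block CDK1 was higher with siRNA 2 (limma, adjusted p = 0.00848). Leaving out siRNA 2 replicate 2, the lowest CDK1 value of that group, raised the siRNA 2 mean. In that fit CDK1 passed also with no block (limma, adjusted p = 0.0226). AURKA, the kinase of spindle poles, stood at 78.2, 54.1 and 52.3 RPM in control, at 62.9, 47.9 and 46.8 RPM with siRNA 1, and at 79.5, 59.7 and 64.9 RPM with siRNA 2. Replicate 1 was the highest in every group, so groups overlapped while each pair went the same way. The difference was 0.37 (SE 0.17, limma, adjusted p = 0.313; 0.0172 with the replicate block).

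INCENP stood at 95.5, 99.2 and 102 RPM with siRNA 1 and at 130.0, 120.4 and 136 RPM with siRNA 2. These groups lay well apart, and the control libraries reached into both. The difference was 0.38 (SE 0.10, limma, adjusted p = 0.0688; 0.00848 with the replicate block). Its partner AURKB, at 16.4, 14.3 and 14.4 RPM with siRNA 1 and 19.1, 17.0 and 19.8 RPM with siRNA 2, did not overlap either but passed neither fit (limma, adjusted p = 0.396; 0.174 with the block). CENPF was at 198, 152 and 196 RPM with siRNA 2, above siRNA 1 in each pair. The difference was 0.33 (SE 0.12, limma, adjusted p = 0.195; 0.0297 with the replicate block). TOP2A was at 801, 684 and 915 RPM with siRNA 2, again above siRNA 1 in each pair and most in replicate 3. Its difference was 0.33 (SE 0.13, limma, adjusted p = 0.244; 0.0155 with the replicate block).

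ANLN, the scaffold of the cytokinetic ring, stood at 513, 436 and 399 RPM in control, at 442, 363 and 366 RPM with siRNA 1 and at 542, 459 and 429.8 RPM with siRNA 2. In every pair siRNA 1 was lowest and siRNA 2 highest. The difference was 0.29 (SE 0.12, limma, adjusted p = 0.278; 0.0205 with the replicate block). For 7 of 36 genes siRNA 2 lay above siRNA 1 with no overlap (BUB3, CENPA, AURKB, INCENP, KIF4A, NUSAP1 and ECT2), against 7.04% of all genes. The 3 genes on the other side were CDC20 at -0.25 (SE 0.18), CCNB2 at -0.046 (SE 0.15) and NDC80 at -0.020 (SE 0.25), each with overlapping groups. CENPE, a kinetochore motor, differed by only 0.0016 (95% interval -0.30 to 0.30). The interval of DLGAP5 was -0.20 to 0.24.

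**Figure D4:**
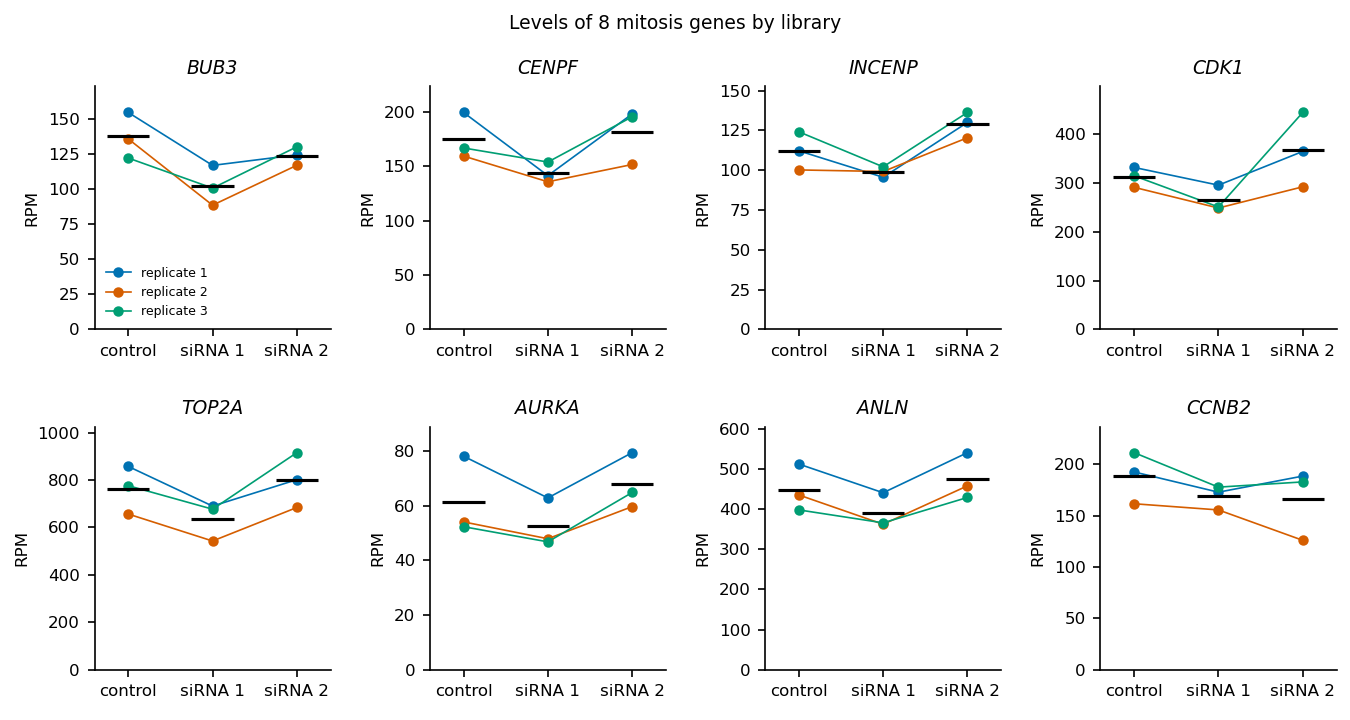
RPM of 8 mitosis genes by group, each from 0 on a linear axis; points are libraries, coloured lines join the same replicate number and black bars are group means (n = 3). In 7 of the 8 genes siRNA 1 lies under both other groups on every line, and CCNB2 differs in that siRNA 2 replicate 2 is the lowest library at 126 RPM.

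The mean of both PVRL4 siRNAs against control joined mostly lower values with siRNA 1 and values on either side of control with siRNA 2. The difference was negative for 28 of 36 genes with a median of -0.049 (all genes -0.0047, 51.5% negative). In limma (0.152% of all genes), edgeR and DESeq2 0 of 36 passed. Each had 1 of 36 at an unadjusted p under 0.05, against 675, 701 and 641 of all 11158 genes in turn. With the replicate block 0 of 36 passed, against 1.11% of all genes, with 3 at an unadjusted p under 0.05 (1233 of all genes). BUB3 had the smallest p, at -0.29 (SE 0.10, limma, adjusted p = 0.567), and was lower than the control of its number in 5 of 6 libraries. CENPA differed by -0.20, CDC25C by -0.25 and CCNB2 by -0.18, with adjusted p of 0.974 or more by limma. CCNB2 stood at 193, 162 and 211 RPM in control, at 173, 156 and 178 RPM with siRNA 1 and at 189, 126 and 183 RPM with siRNA 2. It was lower than control in all 6 pairs, and least of all in siRNA 2 replicate 1. Without control replicate 1 the median of the 36 was 0.0017.

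Differences between replicate numbers were of the size of those between the siRNAs. After the group means were taken out, libraries with the same number correlated over all genes at 0.252 to 0.417 in 9 pairs. Libraries with other numbers correlated at -0.340 to -0.0275 in 18. Deviations from a group mean cancel within the group, so positive values for the same number push the others down. The second range is therefore not a separate observation. A limma test of the replicate number, with group in the model, was passed by 8 of 36 genes, against 9.77% of all genes. At an unadjusted p under 0.05 there were 22 of 36, against 3243 of all 11158 genes. edgeR and DESeq2 called 10 each, against 1090 and 842 of all genes. Replicate 1 was highest in all 3 groups for 13 of 36 genes, against 11.2% of all genes, and replicate 2 lowest in all 3 groups for 11, against 4.69%. Replicate 1 exceeded replicate 2 for 35 of 36 genes, with a median of 0.25 against -0.0077 over all genes, and CDC25C was the exception at -0.35. The labels do not say what the number stands for. The count of 8 was 0 in limma without a trend, 3 with no filter on low values and 3 to 8 with 1 library left out. Over all genes the limma count of 1090 went to 316, 354 and 609 to 815 in turn.

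Mitotic entry held 4 of the 8 genes. AURKA had the smallest adjusted p (limma, 0.00893), with means of 73.5, 53.9 and 54.7 RPM over the 3 libraries of replicates 1, 2 and 3. FOXM1, the transcription factor that turns on many genes of this group, had means of 95.9, 72.7 and 73.6 RPM (limma, adjusted p = 0.0161). In both, replicate 1 stood above the others. PLK1, a kinase of mitotic entry and centrosome maturation, had means of 159.9, 132 and 122 RPM (limma, adjusted p = 0.0378, and short of the threshold under TMM, median-of-ratios or quantile scaling or by edgeR). CCNB2 differed in shape, with means of 185, 148 and 191 RPM (limma, adjusted p = 0.0243), so that replicate 2 was low and replicate 3 as high as replicate 1. TOP2A had the same shape, at 783, 628 and 789 RPM (limma, adjusted p = 0.0204). TPX2, which builds the spindle with AURKA, had means of 126, 102 and 100.1 RPM (limma, adjusted p = 0.0255). UBE2C had means of 478, 382 and 427 RPM (limma, adjusted p = 0.0269) and ANLN 499, 419 and 398 RPM (limma, adjusted p = 0.0215). Replicate 1 was the highest in these last 3 genes, and no spindle checkpoint, kinetochore or passenger gene passed limma. BUB1 and BUB1B, the checkpoint kinase and its paralog BUBR1, missed it (adjusted p = 0.0723 and 0.0755) and passed edgeR (0.0379 and 0.0438) and DESeq2 (0.0285 and 0.0398).

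Genes of DNA replication followed the numbers in another order. Of 30 S phase genes, 12 passed the test of the replicate number, against 9.77% of all genes. RRM2, CDC6, TYMS and MCM7 came first (limma, adjusted p 0.000804 to 0.00959). Over the 30 S phase genes the median difference between replicates 1 and 2 was 0.22, close to the 0.25 of the mitosis genes. Between replicates 1 and 3 it was 0.33, against 0.13 for the mitosis genes, and between replicates 3 and 2 it was -0.080, against 0.12. Replicate 3 thus lay low for S phase genes in all 3 groups and near or above the group mean for the 36 mitosis genes. The 125 other mitosis genes tested lay between these lists. Their median was 0.17 between replicates 1 and 3 and -0.0067 between replicates 3 and 2. In replicate 3 their median lay below the group mean in control, siRNA 1 and siRNA 2 (-0.046, -0.055 and -0.061). Of 10 cell cycle brake genes, 3 passed, CDKN1A, CDKN1B and CCNG2, against the same 9.77% of all genes. CDKN1A, the p21 inhibitor of cyclin-dependent kinases, was lowest in replicate 3 of each group, at 9.46, 11.95 and 11.1 RPM, against 12.4 to 18.6 RPM in the other libraries (limma, adjusted p = 0.0143).

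**Figure D5:**
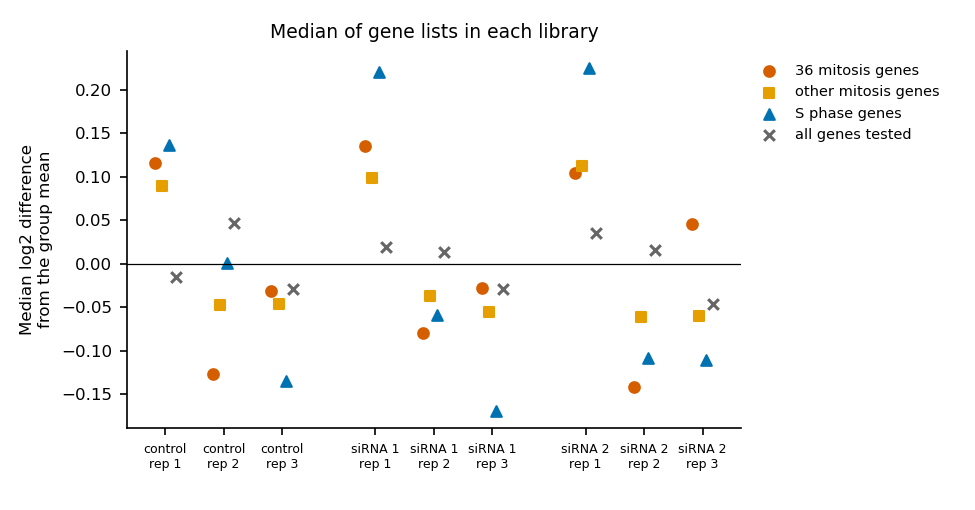
Median over each gene list of the log2 difference between a library and the mean of its group (vertical axis), for the 9 libraries (horizontal axis); symbols are gene lists. The 36 mitosis genes (circles) stand at 0.10 to 0.14 in replicate 1 of every group and at -0.14 to -0.079 in replicate 2. Other mitosis genes (squares) lie below the group mean in replicate 3 of every group (-0.061 to -0.046). S phase genes (triangles) are lowest in replicate 3, though nearly level with replicate 2 in the siRNA 2 group. The median of all genes (crosses) stays within -0.047 and 0.047.

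In the pairwise siRNA comparisons, other genes of mitosis lay on the same side as the 36 in the median, with few calls. Of 132 listed, 130 were in the table and 125 were tested. With siRNA 1, 2 passed (0.851% of all genes), both lower, and both belong to the list of kinetochore and checkpoint genes. ERCC6L, a helicase of chromatin threads between separating chromosomes, stood at 20.7, 18.1 and 16.5 RPM in control, at 9.76, 8.62 and 10.1 RPM with siRNA 1 and at 21.6, 17.1 and 17.6 RPM with siRNA 2. It fell by 0.89 on the log2 scale with siRNA 1 (limma, adjusted p = 0.00862). OIP5, which loads CENPA at centromeres, stood at 57.2, 57.3 and 55.9 RPM in control, at 34.4, 33.8 and 41.5 RPM with siRNA 1 and at 47.6, 45.0 and 61.8 RPM with siRNA 2. It fell by 0.63 with siRNA 1 (limma, adjusted p = 0.0424; edgeR 0.0595). All siRNA 1 libraries of both genes lay under all libraries of the other groups. The median of the 125 was -0.089 with siRNA 1, 0.029 with siRNA 2 and 0.12 between the siRNAs. In the lists with no call with siRNA 1, the genes with the smallest p were CDC25B, LIN52, KIF14, ANAPC2 and NCAPD3 (limma, adjusted p 0.407 to 0.878).

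With siRNA 2, 0 of the 125 passed against control (0.681% of all genes), with 8 at an unadjusted p under 0.05 (1051 of all 11158 genes). By edgeR 0 were called and by DESeq2 1, against 58 and 159 of all genes. With the replicate block 2 passed, RBL1 and ANAPC13, both lower, against 3.41% of all genes. RBL1 encodes p107, a pocket protein that represses cell cycle genes, and stood at 93.2, 90.1 and 85.6 RPM in control and 68.5, 64.6 and 60.6 RPM with siRNA 2 (difference -0.47; limma, adjusted p = 0.113, and 0.00746 with the block). The groups lay well apart. In 3 of the other lists CDK2, HAUS8 and PDS5B had the smallest p (limma, adjusted p 0.502 to 0.715). Between the siRNAs 2 of 125 passed (3.05% of all genes), ERCC6L, higher with siRNA 2 by 0.91 (limma, adjusted p = 0.00453), and ANAPC13, a small subunit of the anaphase promoting complex, lower, with a difference of -0.67 (limma, adjusted p = 0.017). The count was 12 with the replicate block, 10 of them higher with siRNA 2, a share near the 9.33% of all genes. NEK2, RBL1, CEP55 and NCAPG2 had the smallest p of the lists with no call (limma, adjusted p 0.0622 to 0.193). For the mean of both siRNAs against control 0 of 125 passed (0.152% of all genes), and edgeR and DESeq2 called 0. At an unadjusted p under 0.05 there were 8 by limma, against 675 of all 11158 genes. With the block OIP5 passed (limma, adjusted p = 0.0498), against 1.11% of all genes.

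General markers of proliferation did not pass limma without the replicate block in the siRNA comparisons. MKI67, which encodes the Ki-67 antigen, stood at 231, 173 and 198 RPM in control, at 181, 177 and 181 RPM with siRNA 1 and at 256, 214 and 163 RPM with siRNA 2. Its groups overlapped, with differences of -0.15, 0.058 and 0.21 in the 3 pairwise comparisons. MYBL2, the B-Myb partner of MuvB, differed by -0.071, 0.019 and 0.089 and passed for the replicate number (limma, adjusted p = 0.0193). E2F1, an activator of S phase genes, differed by -0.13, 0.26 and 0.40, the last passing with the replicate block alone (limma, adjusted p = 0.13; 0.00709 with the block). CDKN1A differed by 0.30, 0.31 and 0.014. Of 30 S phase genes 0 passed limma, edgeR or DESeq2 in any siRNA comparison. In the 3 pairwise comparisons 0, 1 and 4 lay at an unadjusted p under 0.05 by limma, with medians of -0.089, 0.032 and 0.13. Over all 11158 genes 674, 1051 and 1686 lay at that level. RRM1, MCM3 and PRIM1 had the smallest p in turn (limma, adjusted p 0.196 to 0.903), and MCM3 was lower with siRNA 2 than in control with the block (0.0267; edgeR with the block 0.0477). Between the siRNAs limma with the block called 0 of 30, against 9.33% of all genes. The block in edgeR gave 4 of 30, against 1015 of all 11158 genes. Among the 4 were TYMS, GINS2 and RFC3 (edgeR with the block, adjusted p 0.0419 to 0.0462). Of the 10 brakes 0 passed by limma, edgeR or DESeq2, with 0, 3 and 2 at an unadjusted p under 0.05 and CDKN2D and CDKN2B at the smallest p (limma, adjusted p 0.165 to 0.984). With the block CCNG1 was lower with siRNA 2 than in control (limma, adjusted p = 0.0392) and CDKN2B lower with siRNA 2 than with siRNA 1 (0.0375).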

How the data were processed

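Total RNA of 9 SKBR3 samples was made into libraries with an Ion AmpliSeq transcriptome kit, which reads each gene through 1 amplicon, per the labels' protocols. The authors deposited RPM values (each gene's reads, brought to the same total in every library) for 20812 genes. Per the submitters' processing notes, reads were placed on hg19. The aligner is not given in the sources used here, nor is the read counter. RPM removes differences in total RNA per cell. In each library 100% of low values were whole multiples of 1 read (0.0934 to 0.0998 RPM) within 0.1 read, so reads were recovered. The floor of 3 reads lay at 0.28 to 0.299 RPM. Reads carry no molecular identifiers, so this floor covers counting error only. Libraries of a group differed beyond counting noise (chi-square per degree of freedom 8.90 to 23.9).

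Groups and replicate numbers came from the sample titles, and 0 columns had no sample. Tests were two-sided, on log2(RPM + 1) with limma 3.58.1 (R 4.3.3, trended prior), for 11158 genes (mean over the libraries of 1 RPM or more), in 1 fit of the 3 groups, with Benjamini-Hochberg adjustment over all genes at 0.05. Log2 differences understate the change of low genes. The replicate numbers of the titles pair the samples: all 9 same-number pairs correlated over 0.1 and 9 of 9 libraries correlated best with their own number. The fit with that number as a block is given where it changes a call. The test of the numbers is limma's F test. edgeR 4.0.16 (quasi-likelihood) and DESeq2 1.42.0 were run on recovered reads. Scripts were tested on simulated data.

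The 36 genes, the other lists and the tests were chosen with earlier results of these data known, and no pattern here is independent support of them. For each comparison the rule names every gene past the threshold or, under 4 such, those with the smallest p up to 4, and up to 8 for the replicate numbers. AURKA and ANLN were added between the siRNAs because they passed with the block, and genes that did not overlap or were named as exceptions were chosen after their values were seen. Of other lists it names the genes past the threshold, at most 4, or the 1 with the smallest p; some genes of these lists are not reported here. Alternatives were pseudocounts of 0.1 and 5, no filter, a filter at 5 RPM, 3 scalings, the block, the compared groups alone, no trend, edgeR, DESeq2 and leaving out each library. Promoters came from RefSeq; proteins and coordinates in hg19 were not used here.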

Additional observations from a re-analysis of the deposited data

Results flagged for a closer look

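For 6 genes the siRNAs lay on opposite sides of control: every siRNA 1 library was under, and every siRNA 2 library over, the control library of its number. The share of all genes with this pattern was not worked out, so the count of 6 has no background. Some sides were near ties on the log2(RPM + 1) scale. In replicate 2, CDK1 differed from control by 0.0051 with siRNA 2 and INCENP by -0.014 with siRNA 1. NUF2 differed by -0.017 and -0.018 with siRNA 1 in replicates 1 and 2, and by 0.021 with siRNA 2 in replicate 1. The difference between the siRNAs (siRNA 2 minus siRNA 1, log2) was tested by limma. It was 0.45 for CDK1 (adjusted p = 0.0945; 0.00848 with the replicate block), 0.38 for INCENP (adjusted p = 0.0688; 0.00848) and 0.37 for AURKA (adjusted p = 0.313; 0.0172). It was 0.29 for ANLN (adjusted p = 0.278; 0.0205), 0.26 for NUF2, an NDC80 complex subunit (adjusted p = 0.468; 0.251), and 0.24 for TPX2 (adjusted p = 0.432; 0.0803). The genes were picked for this pattern, which fixes the direction of that difference, so these p-values, adjusted over all genes, describe them and lend the pattern no support. Both comparisons with control share the control libraries, so a control library that lies off moves both.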

How the results depend on the processing

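No direction of a called result was reversed. Under the alternatives, 243 summary values kept within 1.5 times (counts) or 1 SD (medians) and 40 moved, and for single genes 533 values kept their side, 59 lost the call and 22 gained it. With the replicate block the members called were 1 for siRNA 1 and 6 between the siRNAs, and with edgeR and the block 1 and 7. Between the siRNAs they were 2 with DESeq2 and 0 to 1 with 1 library left out. By replicate number they were 3 with no filter, 0 with no trend and 3 to 8 with 1 library left out. Of the other mitosis genes with siRNA 1, 0 to 2 were called with 1 library left out (46 to 137 of all genes). At a pseudocount of 5, with no filter, with no trend and by edgeR 1 was called (49 to 108 of all genes). Under median-of-ratios, TMM or quantile scaling 1 was called too (81 to 98 of all genes). With siRNA 2 the other mitosis genes called were 2 with the block, 3 with edgeR and the block and 1 with DESeq2. Between the siRNAs they were 12 with the block, 17 with edgeR and the block and 10 with DESeq2. With 1 library left out they were 1 to 3 (153 to 306 of all genes). For the mean of both siRNAs they were 1 with the block and 1 with edgeR and the block. Calls over all genes moved as well. Between the siRNAs they went from 340 to 1041 with the block, 1015 with edgeR and the block and 524 with DESeq2. With siRNA 1 they went from 95 to 206 and 219 with these 2 blocks. With siRNA 2 they went from 76 to 380 and 320, and to 159 with DESeq2. For the mean of both they went from 17 to 124 and 122. By replicate number they went from 1090 to 354 with no filter and 316 with no trend. The cause of these moves was not tested. The median of the members with 1 library left out ran from -0.23 to -0.076 for siRNA 1, -0.016 to 0.12 for siRNA 2, 0.14 to 0.27 between the siRNAs and -0.12 to 0.0017 for the mean of both. Under the scalings it kept its sign. Depth was ample, with 52 reads or more per gene and library, so the spread between 3 libraries limits these results.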
